A study of Homo sapiens with 3 samples.

Results

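The interferon-stimulated genes described here are a chosen set of 34 of the genes that cells use against viruses. They were found by matching the 34 symbols to Ensembl identifiers in the deposited table, and all 34 were among its 60504 rows. RNA-Seq had been performed on 3 libraries of DLD1, an established colorectal cancer cell line: 1 of DLD1 control cells with the wild type genotype, and 1 each of clone 1 and clone 2 of BEX2-/- DLD1 cells. The study knocked out BEX2 with CRISPR/Cas9 and asked which genes were altered in these cells. Each knockout library came from 1 clone, no interferon or other treatment is given for any group, and BEX2 mRNA was listed at 0 in all 3 libraries, so it does not check the genotype labels.

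Type I and type III interferons bind receptors at the cell surface, and the kinases JAK1 and TYK2 then phosphorylate STAT proteins such as STAT2. STAT2 and IRF9 are parts of the complex ISGF3, which binds the interferon-stimulated response element (ISRE) of target genes. Interferon gamma acts mainly through another element, the gamma-activated site (GAS). Epithelial cells of the gut express many of the target genes at a basal level, and tumour cell lines differ widely in this level.

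Promoters were read from RefSeq sequences on GRCh38.p14, 250 bases before to 50 bases after each annotated start. At least 1 promoter was matched for 27 of the 34 genes, and IFIT2, IFITM2, IRF7, MX2, OAS2, OASL and USP18 were not matched. The ISRE core, searched as GAAANNGAAA on both strands, was present in 20 of the 27 genes (74.1%), beside 4.38% of all 27305 gene symbols with a promoter of the same length. By single promoters the shares were 70.6% of 34 and 3.57% of 35116. In 14 of the genes a promoter held at least 2 copies, beside 0.259% of all single promoters. The units differ, since the 14 counts genes by the promoter with most copies and the share counts single promoters. Matches that overlap, as in ISG15 and BST2, were counted as separate copies. It was not found in these windows of HERC6, IFI35, IRF1, IRF9, OAS1, STAT2 and UBE2L6. The GAS core, TTCNNNGAA, was present in 10 of the 27 genes (37.0%), beside 9.38% of all gene symbols. A GAS match can overlap an ISRE match, and any match is a description of the letters and not a measured binding site.

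The promoters of 5 genes are shown because their levels, given below, covered the different patterns seen. IFITM1 and IFITM3 were lower than the control in both clones, IFIT1 and IFIT3 differed from each other in clone 2, and SAMD9 was alike in both clones. They are written 5′ to 3′ on the strand of the gene, with the ISRE core in capitals. The intervals are chr11:313790-314089 on the plus strand for IFITM1, chr11:320811-321110 on the minus strand for IFITM3, chr10:89392373-89392672 on the plus strand for IFIT1, chr10:89327747-89328046 on the plus strand for IFIT3, and chr7:93117930-93118229 on the minus strand for SAMD9. A second listed start of IFIT3 also had 2 copies and is not shown.
IFITM1: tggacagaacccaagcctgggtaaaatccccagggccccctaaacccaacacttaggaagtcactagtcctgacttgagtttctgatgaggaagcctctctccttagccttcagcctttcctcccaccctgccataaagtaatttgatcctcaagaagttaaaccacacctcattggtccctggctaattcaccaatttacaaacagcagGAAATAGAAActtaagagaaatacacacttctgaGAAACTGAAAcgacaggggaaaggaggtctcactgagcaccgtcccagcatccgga
IFITM3: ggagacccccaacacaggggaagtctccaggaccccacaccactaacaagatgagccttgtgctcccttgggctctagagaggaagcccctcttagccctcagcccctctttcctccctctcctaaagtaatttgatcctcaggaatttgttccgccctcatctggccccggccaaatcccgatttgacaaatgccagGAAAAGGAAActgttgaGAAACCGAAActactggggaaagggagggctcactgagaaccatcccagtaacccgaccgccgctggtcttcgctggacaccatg
IFIT1: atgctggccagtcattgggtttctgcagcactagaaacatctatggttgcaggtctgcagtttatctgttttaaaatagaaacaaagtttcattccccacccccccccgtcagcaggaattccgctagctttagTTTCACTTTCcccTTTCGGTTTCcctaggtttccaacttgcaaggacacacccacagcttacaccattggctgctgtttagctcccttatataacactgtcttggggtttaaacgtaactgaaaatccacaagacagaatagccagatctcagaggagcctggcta
IFIT3: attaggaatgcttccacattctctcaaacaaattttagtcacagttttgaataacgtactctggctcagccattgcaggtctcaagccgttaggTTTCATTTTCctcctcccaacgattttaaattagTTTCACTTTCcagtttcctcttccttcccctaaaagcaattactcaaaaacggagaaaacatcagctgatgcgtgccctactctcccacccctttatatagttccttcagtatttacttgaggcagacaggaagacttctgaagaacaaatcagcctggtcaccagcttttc
SAMD9: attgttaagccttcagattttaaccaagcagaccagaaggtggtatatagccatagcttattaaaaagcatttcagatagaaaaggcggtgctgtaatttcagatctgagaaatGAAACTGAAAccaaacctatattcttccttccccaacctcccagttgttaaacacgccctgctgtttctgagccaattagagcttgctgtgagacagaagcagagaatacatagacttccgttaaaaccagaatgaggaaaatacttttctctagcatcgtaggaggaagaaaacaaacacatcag
The nearest copy began 6 bases upstream of the start in IFITM1, 35 in IFITM3, 103 in IFIT1, 122 in IFIT3 and 136 in SAMD9. All but SAMD9 held 2 copies.

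Values are FPKM, a number of fragments scaled to exon length and library size. They allow levels to be compared between genes. Whole reads could be recovered from the values of 31 of the 34 genes, and not of IFIT2, ISG15 and IFIH1. The control library had a recovered depth of 47458814 reads, against 35594023 for clone 1 and 47722339 for clone 2. Intervals of a ratio given below are exact 95% intervals from these reads. They cover counting error only and compare 2 libraries, not 2 conditions. With 1 control library, the spread between control cultures is unknown, and a difference between a clone and the control cannot be told apart from a difference between cultures or clones.

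The epithelial character of the cells was checked with 7 markers, of which 6 reached the level filter. EPCAM was 265, 282 and 220 FPKM in control, clone 1 and clone 2, but markers of intestinal differentiation in the same list differed between the clones. VIL1, an actin-binding protein of microvilli, was 3.61, 13.2 and 0.221 FPKM, and CDX2, an intestinal transcription factor, was 33.3, 43.2 and 24.0 FPKM. CDX1, which did not reach the filter, was 0.455, 0.815 and 0.0834 FPKM. The part of this difference between the clones in the results below was not tested. No leukocyte marker (of 7), fibroblast marker (of 6) or endothelial marker (of 4) reached the filter. Summed leukocyte markers were 0.803, 0.811 and 0.749 FPKM, and 4 of the 7 were at 0 in every library. Summed fibroblast markers were 0.136, 0.634 and 0.129 FPKM. Summed endothelial markers were 0.0649, 0.0784 and 0.0767 FPKM, so none of these 3 lists summed to 1 FPKM in any library.

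The basal levels of the 34 genes spanned a wide range. In DLD1 control cells the highest were IFITM2 at 191 FPKM, IFITM3 at 174 FPKM and ISG15 at 41.8 FPKM. OAS3 followed at 19.8 FPKM, and IRF7 and IFI6 were both at 14.0 FPKM. Another 12 genes were under 1 FPKM in every library, namely IFIT1, IFIT2, MX1, MX2, OAS2, OASL, IFI27, IFI44, IFI44L, IFITM1, IRF9 and BST2. MX1, IFI44L and IFI27, which are often used as markers of an interferon response, were therefore low in all 3 libraries. Other genes of the set, such as ISG15, OAS3 and IFI6, were among the highest in the control, so low levels did not hold for the whole set. The 34 genes summed to 516 FPKM in control, 312 in clone 1 and 430 in clone 2. Without the 3 IFITM genes the sums were 150, 148 and 192 FPKM.

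A gene was taken into counts when the mean of the control value and the clone mean was at least 1 FPKM, and ratios were taken on log2(FPKM + 1), which understates the change of low genes. In all, 20 of the 34 genes passed, of which IFIT3 passed only through its level in clone 2. HERC5, at 1.33 FPKM in control and 0.554 FPKM in clone 1, also passed only with clone 2 included. In clone 1, 2 of these 20 genes, IFITM2 and IFITM3, were at least 2-fold lower than in the control (0.959% of all 11675 genes tested), and 0 were at least 2-fold higher (1.06% of all genes). In clone 2, 1 gene, IFIT3, was at least 2-fold higher than in the control (1.33% of all genes) and 0 were at least 2-fold lower (0.737% of all genes). No gene was at least 2-fold higher in both clones (0.12% of all genes) or at least 2-fold lower in both (0.206% of all genes). Leaving out 1 clone turns this rule into the count of the other clone, given above, and is no further check. That is 2 lower genes, IFITM2 and IFITM3, without clone 2 and 1 higher gene, IFIT3, without clone 1.

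The test of knockout against control was made with limma across all 11675 genes, in which the control is assumed to vary like the clones. None of the 20 genes passed at an adjusted p of 0.05, as 0% of all genes did. At an unadjusted p under 0.05 there was 1 of the 20 genes, IFITM2, against 1.19% of all genes, and the adjusted p of IFITM2 was 0.9999. A threshold missed in a design with 1 control library does not show that the genes were unaltered.

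The median log2 ratio of the 20 genes to the control was 0.02 in clone 1, with 10 genes above 0 (56.2% of all genes were above 0), beside a median of 0.04 over all genes. In clone 2 the median was 0.28, with 15 of the 20 genes above 0 (48.4% of all genes), beside a median of -0.01 over all genes. Among the 15 were IFIT3 and HERC5, which passed the filter only with clone 2 included. Both comparisons share the 1 control library.

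**Figure D1:**
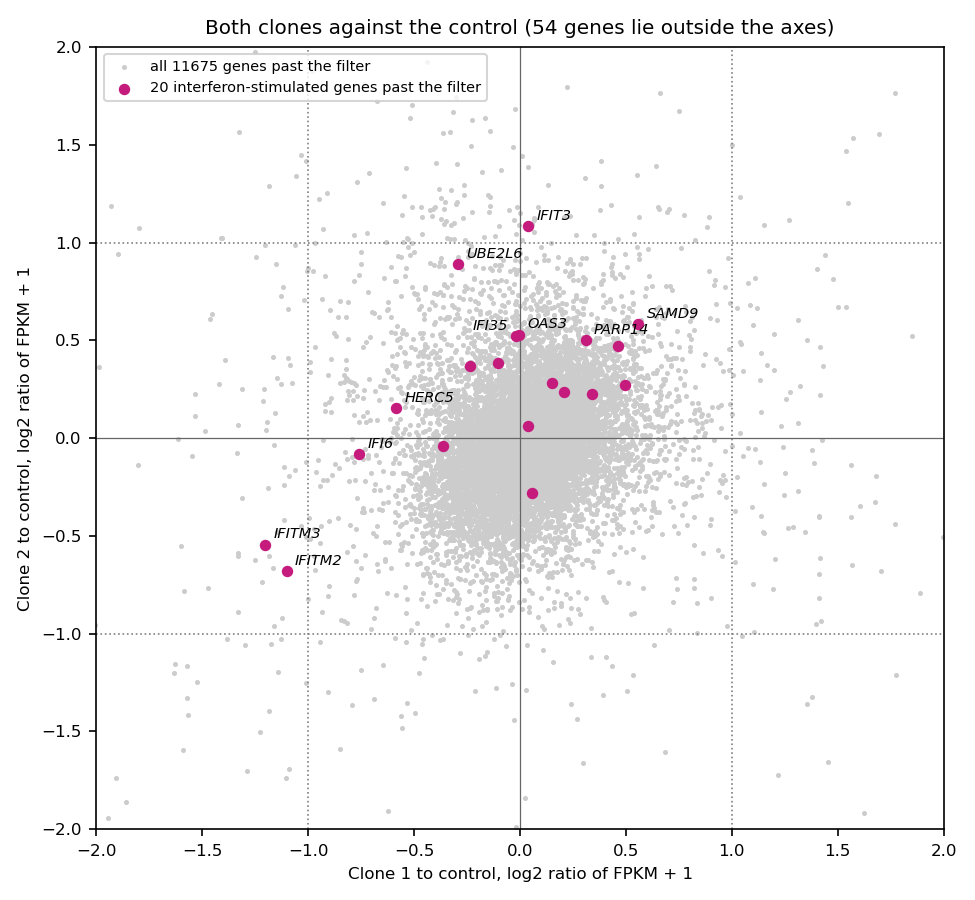
Log2 ratio of FPKM + 1 to the control in clone 1 (horizontal) and clone 2 (vertical). Grey points are all 11675 genes past the level filter, of which 54 lie outside the axes, and coloured points are the 20 interferon-stimulated genes that passed. Dotted lines mark a 2-fold difference. IFITM2 and IFITM3 lie at the lower left, IFIT3 and UBE2L6 at the top and SAMD9 at the upper right, and both axes share the same control library.

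The IFITM genes encode small membrane proteins that hinder the fusion of viruses with endosomal membranes. IFITM2 (ENSG00000185201, chromosome 11 of GRCh38, 307631 to 315272) was 191 FPKM in control, 88.6 FPKM in clone 1 and 119 FPKM in clone 2. The read numbers were 14017, 4867 and 8760 reads. Both clones lay under the control, and clone 1 was the lowest. The FPKM ratio to the control was 0.463 (95% interval 0.448 to 0.478) in clone 1 and 0.622 (95% interval 0.605 to 0.638) in clone 2. The clone mean was 104 ± 21.5 FPKM (SD, n = 2), and the limma log2 difference was -0.89 ± 0.25 (SE).

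IFITM3 (ENSG00000142089, chromosome 11, 319669 to 327537), the best known antiviral member of the family, was 174 FPKM in control, 74.8 FPKM in clone 1 and 119 FPKM in clone 2. As for IFITM2, clone 1 was lowest and clone 2 lay between it and the control. The ratio to the control was 0.431 (95% interval 0.415 to 0.448) in clone 1 and 0.683 (95% interval 0.664 to 0.704) in clone 2. The clone mean was 96.7 ± 30.9 FPKM (SD, n = 2), with a limma log2 difference of -0.87 ± 0.34 (SE) and an unadjusted limma p of 0.0712.

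IFITM1 (chromosome 11, 313506 to 315272), which acts mainly at the cell surface, was far lower at 0.741, 0.0520 and 0.233 FPKM, from 38, 2 and 12 reads in control, clone 1 and clone 2. Both clones were again under the control. The ratio was 0.0702 (95% interval 0.00820 to 0.272) in clone 1 and 0.314 (95% interval 0.149 to 0.614) in clone 2. By ratios without a pseudocount and without the filter, IFITM1 was the 1 gene of the 34 at least 2-fold lower in both clones, beside 1.94% of the 27739 genes so tested. None of the 34 was at least 2-fold higher in both, beside 1.83% of those genes.

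The family shares sequence. In the annotation IFITM1 and IFITM2 overlap on the same strand over 351 exon bases, which is 32.5% of the exons of IFITM1. Of all 50-base windows of exon sequence, 32.0% in IFITM1, 34.1% in IFITM2 and 17.4% in IFITM3 also occur in another gene, so the counting may have split or dropped reads among them. Counting of the deposited values by strand was not stated in the sources used here.

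The neighbours of IFITM2 and IFITM3 were examined after their values had been seen. Within 200 kb on either side, 10 other protein-coding genes passed the filter. Their log2 ratios to the control ran from -0.26 to 0.09 in clone 1, with a median of -0.07, and from -0.22 to 0.14 in clone 2, with a median of -0.03. The lower levels of IFITM2 and IFITM3 in the clones were not shared by these protein-coding neighbours. An antisense transcript within the span of IFITM2 was lower in both, at log2 ratios of -0.74 in clone 1 and -0.36 in clone 2. A processed pseudogene was higher in both, at 0.92 and 0.81. The other antisense transcripts past the filter lay between -0.20 and 0.24.

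The IFIT genes encode proteins that bind viral RNA, and the 4 in this set lie together on chromosome 10. IFIT3, a partner of IFIT1 in RNA binding, was 0.782 FPKM in control, 0.830 in clone 1 and 2.78 in clone 2, from 98, 78 and 350 reads. Only clone 2 stood apart, at a ratio of 3.55 to the control (95% interval 2.83 to 4.49), while the ratio in clone 1 was 1.06 (95% interval 0.778 to 1.44). The limma log2 difference of knockout against control was 0.56 ± 0.53 (SE). IFIT1, which binds the 5′ end of viral RNA, was 0.562, 0.548 and 0.227 FPKM, from 123, 90 and 50 reads. Here clone 2 was the lowest, at a ratio of 0.404 to the control (95% interval 0.285 to 0.566). IFIT1 and IFIT3 thus lay on opposite sides of the control in clone 2, and the shown promoters of both hold 2 ISRE cores. IFIT2 was between 0.477 and 0.967 FPKM. IFIT5 was 4.23, 4.36 and 4.46 FPKM and its intervals held 1 in both clones, from 0.927 to 1.15 in clone 1 and from 0.956 to 1.16 in clone 2.

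ISG15 is a ubiquitin-like protein that is joined to other proteins by a chain of enzymes, all of them induced by interferon. ISG15 itself was 41.8 FPKM in control, 38.9 in clone 1 and 54.9 in clone 2, which is a log2 ratio to the control of -0.10 and of 0.38. UBE2L6, the conjugating enzyme of ISG15, was 2.58, 1.92 and 5.63 FPKM, from 269, 150 and 590 reads. The clones lay on opposite sides of the control, at ratios of 0.743 (95% interval 0.605 to 0.911) in clone 1 and 2.18 (95% interval 1.89 to 2.53) in clone 2. HERC5, the main ligase of ISG15 in human cells, was 1.33, 0.554 and 1.59 FPKM, from 301, 94 and 362 reads. It was lowest in clone 1, at a ratio of 0.416 to the control (95% interval 0.327 to 0.527), and its ratio in clone 2 was 1.20 (95% interval 1.02 to 1.40).

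HERC6, a related protein, was higher in both clones than in the control, at 3.88, 5.18 and 4.71 FPKM. USP18, which removes ISG15 and restrains signalling from the type I receptor, was 5.01, 5.24 and 3.95 FPKM. Its ratio to the control was 0.788 (95% interval 0.690 to 0.900) in clone 2, and 23.4% of its 50-base windows also occur in another gene, mainly USP41. ISG20, an exonuclease that degrades viral RNA, was 0.567, 0.416 and 1.11 FPKM and did not reach the filter. Its ratio to the control was 0.734 (95% interval 0.576 to 0.932) in clone 1 and 1.95 (95% interval 1.64 to 2.33) in clone 2.

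The oligoadenylate synthetases sense double-stranded RNA and activate RNase L. OAS3, the most abundant of them in these cells, was 19.8 FPKM in both control and clone 1 and 29.1 FPKM in clone 2. Its ratio to the control was 0.997 (95% interval 0.964 to 1.03) in clone 1 and 1.46 (95% interval 1.42 to 1.51) in clone 2. OAS1 was 7.68, 11.2 and 9.48 FPKM, above the control in both clones, with ratios of 1.46 (95% interval 1.37 to 1.56) in clone 1 and 1.23 (95% interval 1.16 to 1.31) in clone 2. OAS2 and OASL were between 0.166 and 0.423 FPKM in the 3 libraries.

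The MX genes encode GTPases that trap viral nucleocapsids, and both were low. MX1 was 0.443 FPKM in control, 0.414 in clone 1 and 0.231 in clone 2, from 181, 127 and 95 reads. MX2 was 0.286, 0.153 and 0.593 FPKM, from 177, 71 and 369 reads. Clone 2 was thus the lowest library for MX1, at a ratio of 0.522 to the control (95% interval 0.403 to 0.673), and the highest for MX2, at a ratio of 2.07 (95% interval 1.73 to 2.49).

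IFI6, a mitochondrial protein that restrains apoptosis, was 14.0 FPKM in control, 7.86 in clone 1 and 13.2 in clone 2, from 575, 242 and 544 reads. It was lower in clone 1, at a ratio of 0.561 (95% interval 0.481 to 0.653), while the interval in clone 2 was 0.835 to 1.06. IFI35 was 3.04, 2.99 and 4.81 FPKM, with clone 2 the highest at a ratio of 1.58 (95% interval 1.36 to 1.84). IFI27 lay between 0.121 and 0.203 FPKM. IFI44 lay between 0 and 0.0965 FPKM and IFI44L between 0 and 0.00823 FPKM. They rested on at most 7 reads in any library, and IFI44 in clone 2 and IFI44L in both clones had 0 reads, which allows up to 3. BST2, or tetherin, which holds budding virus at the cell surface, lay between 0 and 0.0562 FPKM, with at most 3 reads in any library.

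**Figure D2:**
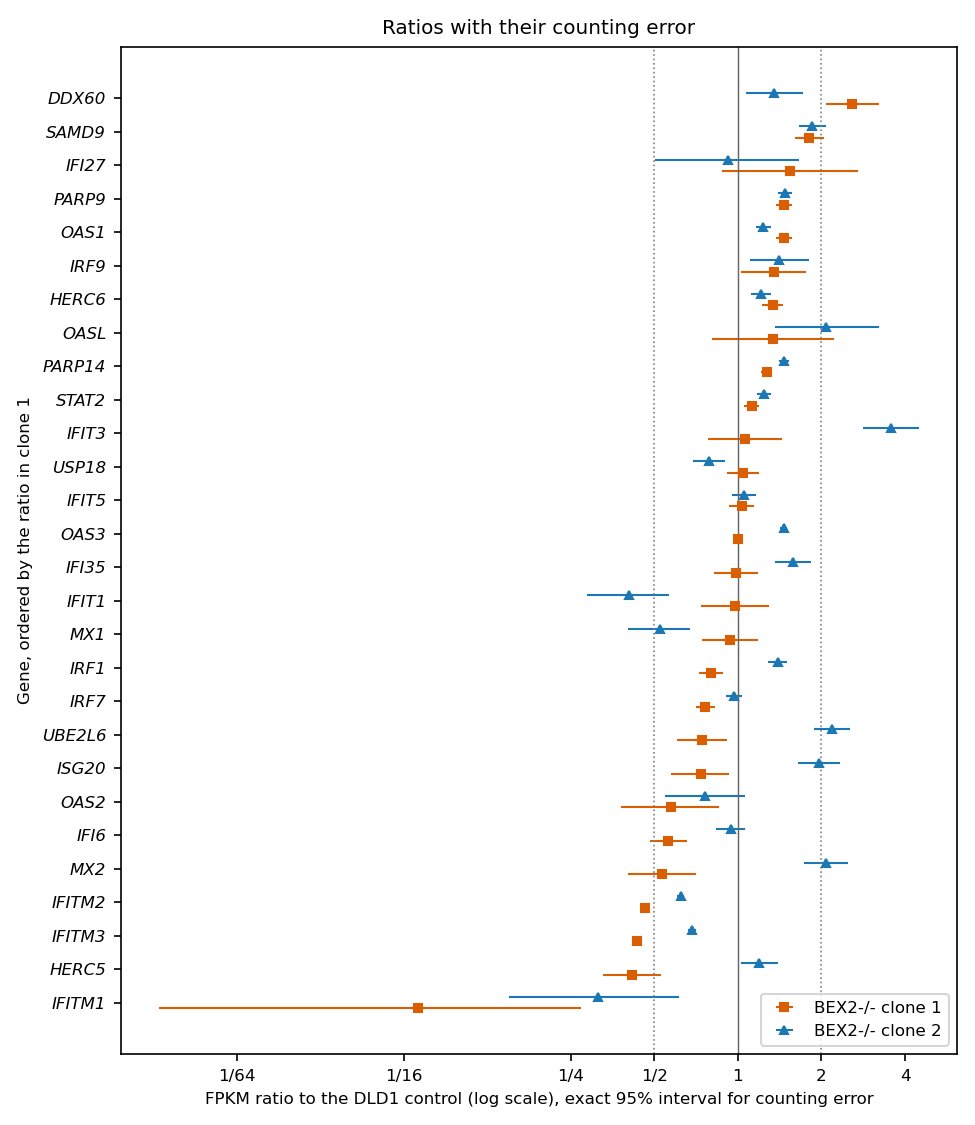
FPKM ratio of clone 1 (squares) and clone 2 (triangles) to the control on a log scale, for the 28 interferon-stimulated genes with whole recovered reads and at least 1 read in every library. Bars are exact 95% intervals for counting error only, and dotted lines mark a 2-fold difference. IFITM1, IFITM2 and IFITM3 lie left of 1 in both clones, SAMD9 and PARP9 lie right of 1 in both at nearly equal ratios, and for HERC5, MX2, ISG20 and UBE2L6 the clones lie on opposite sides of 1.

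SAMD9 and PARP9 were higher than the control by nearly the same amount in both clones. SAMD9, a cytoplasmic protein that restricts poxviruses, was 1.41 FPKM in control, 2.55 in clone 1 and 2.61 in clone 2. The clone mean was 2.58 ± 0.0463 FPKM (SD, n = 2), and the limma log2 difference was 0.57 ± 0.21 (SE) at an unadjusted limma p of 0.0600. PARP9 was 4.07, 5.98 and 6.02 FPKM, with a clone mean of 6.0 ± 0.0219 FPKM (SD, n = 2) and an unadjusted limma p of 0.0705. The 95% interval of the ratio of clone 2 to clone 1 was 0.924 to 1.14 for SAMD9 and 0.947 to 1.07 for PARP9. An SD from 2 values this close does not measure the spread between clones. PARP14, an ADP-ribosyltransferase that acts with PARP9 in macrophages, was 7.59, 9.65 and 11.2 FPKM, higher in clone 2 than in clone 1. Its ratio to the control was 1.27 (95% interval 1.21 to 1.33) in clone 1 and 1.47 (95% interval 1.41 to 1.53) in clone 2. The adjusted limma p of SAMD9, PARP9 and PARP14 was at least 0.9999, as for all 20 genes.

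DDX60, a helicase linked to RNA sensing, differed between the clones at 0.393, 1.02 and 0.531 FPKM, from 126, 244 and 171 reads. It was highest in clone 1, at a ratio of 2.58 to the control (95% interval 2.07 to 3.23), and its ratio in clone 2 was 1.35 (95% interval 1.07 to 1.71). IFIH1, which encodes the RNA sensor MDA5, was 4.30, 5.11 and 5.23 FPKM.

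Of the transcription factors, STAT2 was 7.49, 8.41 and 9.32 FPKM, above the control in both clones. IRF9, the DNA-binding part of ISGF3, was between 0.639 and 0.900 FPKM, and 48.4% of its exon bases overlap another gene annotated on the same strand. IRF7, which drives interferon alpha genes, was 14.0, 10.7 and 13.6 FPKM, and only its interval in clone 1, 0.704 to 0.824, excluded a ratio of 1. IRF1, a main target of interferon gamma, was 2.97, 2.38 and 4.14 FPKM. IRF1 was below the control in clone 1, at a ratio of 0.799 (95% interval 0.725 to 0.881), and above it in clone 2, at 1.39 (95% interval 1.29 to 1.5).

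The clones were then compared with each other, which does not use the control library. Of the 20 genes, 17 were higher in clone 2 than in clone 1 (42.2% of all 11675 genes), and the median log2 ratio was 0.37, beside -0.05 over all genes. Among the 17, the intervals of IFIT5, PARP9 and SAMD9 held a ratio of 1, and IFIH1, without an interval, had a ratio of 1.02. At least 2-fold higher in clone 2 were 2 genes, IFIT3 and UBE2L6 (2.51% of all genes), and 0 were at least 2-fold lower (1.68% of all genes). IFIT3 and HERC5 passed the filter only with clone 2 included. Their places among the 17 genes, and that of IFIT3 in this count, were partly set by the selection. The ratio of clone 2 to clone 1 was 3.35 for IFIT3 (95% interval 2.61 to 4.33) and 2.93 for UBE2L6 (95% interval 2.45 to 3.53). HERC5 followed at 2.87 (95% interval 2.28 to 3.64), which the pseudocount brought to 0.74 on the log2 scale. Each side is 1 library of 1 clone, so no test of this difference could be made.

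Ratios without a pseudocount and without the filter brought in the low genes. By these, 7 of the 34 genes were at least 2-fold higher in clone 2 than in clone 1, beside 7.31% of 27739 genes. The added ones were IFIT2, HERC5, ISG20, MX2 and IFITM1. Values under 3 reads were raised to 3 reads for this rule. IFITM1 rested on 2 reads in clone 1 and 12 in clone 2, and its 95% interval of 0.996 to 41.2 held 1. MX2 had a ratio of 3.88 (95% interval 3.0 to 5.07). IFIT1 and IFI44 were at least 2-fold lower in clone 2, which is 2 of 34, beside 8.87% of those genes. IFIT1 had a ratio of 0.414 (95% interval 0.287 to 0.592).

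**Figure D3:**
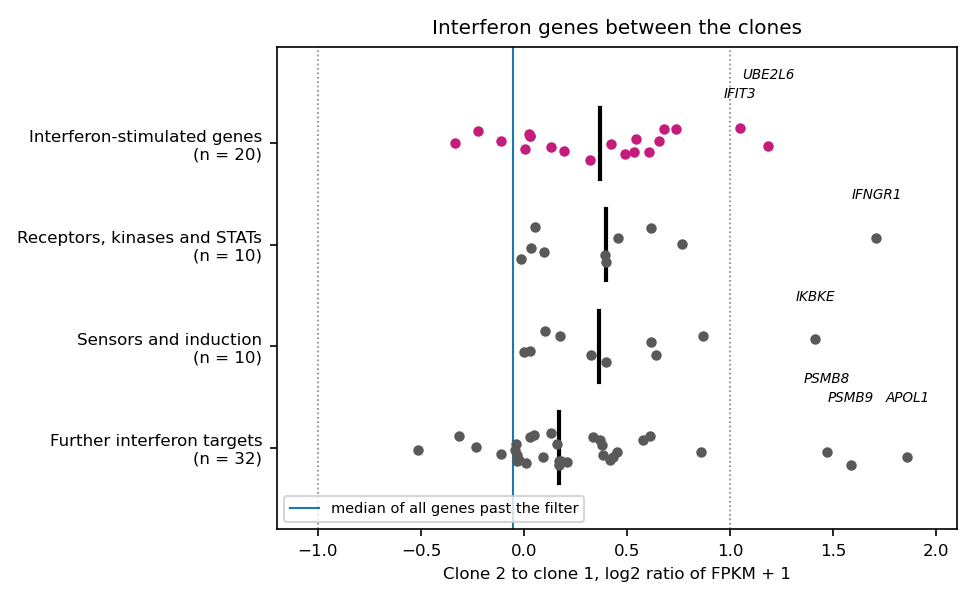
Log2 ratio of FPKM + 1 of clone 2 to clone 1 for the interferon-stimulated genes and 3 lists of other interferon genes past the level filter. Each point is 1 gene, black bars are medians, the blue line is the median of all genes and dotted lines mark a 2-fold difference. The interferon-stimulated genes have a median of 0.37, and genes at least 2-fold apart are named.

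Other genes of the pathway were read from 4 lists. Of 11 interferon genes, 10 were listed at 0 in every library, and IFNE, the interferon epsilon gene, was 0.257, 0.362 and 0.923 FPKM in control, clone 1 and clone 2. Of 13 receptor, kinase, STAT and inhibitor genes, 10 passed the filter and none passed limma in either direction, beside 0% of all genes. Their log2 ratios to the control in clone 2 were 0.23 for IFNAR1, 0.19 for IFNAR2, 1.69 for IFNGR1, 0.47 for IFNGR2, 0.35 for IFNLR1, 0.28 for IL10RB, 0.83 for JAK1, 0.21 for TYK2, 0.60 for STAT3 and 0.32 for PIAS1, with a median of 0.34. In clone 1 the 10 ran from -0.21 to 0.37, with a median of 0.04. IFNGR1, the ligand-binding chain of the interferon gamma receptor, was 28.8, 28.3 and 94.8 FPKM, so clone 2 alone was high. JAK2 was 0.655, 1.69 and 0.796 FPKM, SOCS1 was 0.843, 0.298 and 0.718 FPKM, and SOCS3 was at most 0.130 FPKM.

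Of 15 genes for nucleic acid sensing and interferon induction, 10 passed the filter and none passed limma, beside 0% of all genes. Their log2 ratios to the control in clone 2 were 0.72 for DDX58, 0.38 for TLR3, 0.40 for MAVS, 0.30 for TMEM173, 0.51 for TICAM1, 0.30 for TBK1, 0.87 for IKBKE, 0.16 for IRF3, 0.63 for IRF2 and 0.12 for IRF5, with a median of 0.39. In clone 1 they ran from -0.54 to 0.41, with a median of -0.03. The largest difference between the clones among them was IKBKE, a kinase that activates IRF3, at 3.87, 2.35 and 7.90 FPKM. CGAS, the DNA sensor, was 0.269, 0.0879 and 1.06 FPKM, and DHX58 was 0.472, 0.351 and 0.654 FPKM. ZBP1, AIM2 and IFI16 were at most 0.0260 FPKM.

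Of 56 further interferon targets, 32 passed the filter and none passed limma, beside 0% of all genes. Their median log2 ratio was 0.08 in clone 1, 0.31 in clone 2 and 0.17 for clone 2 to clone 1. At least 2-fold higher in clone 2 than in clone 1 were 3 of the 32, beside 2.51% of all genes. APOL1 was 3.10, 1.04 and 6.40 FPKM, and the immunoproteasome subunits PSMB8 and PSMB9 were 21.1, 12.4 and 36.1 FPKM and 1.82, 1.12 and 5.35 FPKM. None was at least 2-fold higher (0.12% of all genes) or lower (0.206% of all genes) than the control in both clones. GBP3, an interferon-induced GTPase named after its values were seen, came nearest at 5.08, 10.3 and 10.002 FPKM. Its log2 ratios to the control were 0.89 and 0.86. GBP3 was the 1 gene of the 32 under an unadjusted limma p of 0.05 (1.19% of all genes), at 0.0108, with an adjusted p of 0.9999.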

How the data were processed

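RNA was sequenced from DLD1 control cells (1 library) and BEX2-/- DLD1 clones 1 and 2 (2 libraries) with the Illumina TruSeq RNA kit. The authors deposited FPKM values per Ensembl gene. The submitters' processing notes name Trim Galore 0.3.7, STAR 2.5, Cufflinks 2.2.1, DESeq 1.22.1 and hg19. Symbols, exon lengths and gene positions were taken from GENCODE release 29 (GRCh38), which held 56996 of 60504 identifiers.

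Ratios were taken on log2(FPKM + 1). Genes needed a mean of 1 FPKM over the control value and the clone mean. Knockout and control were compared with limma 3.58.1 in R 4.3.3 (trended empirical Bayes, Benjamini-Hochberg over all genes tested). The fit was also run on simulated data, with changes larger than those of the interferon-stimulated genes past the filter. The simulated control varied like the clones. That run does not show how limma performs on smaller changes or with another spread of the control. The p-values rest on the spread between the 2 clones alone.

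Reads were recovered as FPKM times exon length times depth, and counted as whole within 0.02. Low values were whole for 98.7% to 98.8% of single-transcript genes and for 87.8% to 88.3% of the others. A count of 0 was taken to allow 3 reads. Intervals were Clopper-Pearson.

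All 34 genes are accounted for. Genes under 1 FPKM in every library are given by range with 4 exceptions, receptor and sensor genes with values, and further targets only past 2-fold. 1 pathway gene is not reported here. The members and lists were chosen with earlier results of these data known.

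Alternatives were a pseudocount of 0.1 FPKM, median and TPM scaling, no filter, a mean of 5 FPKM, an untrended prior variance, a 1.5-fold threshold, omission of each clone and, added after the data were seen, ratios without a pseudocount.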

Additional observations from a re-analysis of the deposited data

How the results depend on the processing

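No paired analysis was possible because the control has 1 library. limma passed none of the interferon-stimulated genes under any of the 6 alternatives that refit it. Under each of these alternatives limma also passed none of all genes. Of the other values that answer a comparison, clone 2 against clone 1 had a median log2 ratio of 0.15 over all 34 genes without a filter. The number of genes higher in clone 2 than in clone 1 was 0 at a mean of 5 FPKM and 6 at a 1.5-fold threshold. By ratios without a pseudocount or filter, 7 were at least 2-fold higher (7.31% of 27739 genes) and 2 lower (8.87% of those genes). The number lower in both clones was 1 at a 1.5-fold threshold and 1 by ratios without a pseudocount or filter (1.94% of 27739 genes). The share of all genes was not computed at a 1.5-fold threshold or at a mean of 5 FPKM. The counts at those settings are therefore not a result about these genes. Leaving out 1 clone gave 0 to 2 genes lower and 0 to 1 higher, which repeats the counts of the single clones. The other 48 recomputed counts and medians stayed within 1.5 times the count or within the spread. Among them, the median log2 ratio in clone 1, 0.02, changed sign to -0.02 with median scaling, -0.01 without a filter and -0.05 at a mean of 5 FPKM. TPM scaling moved the median of all genes in clone 1 to 0.10. Single genes near 0 changed sign with the scaling, to -0.01 for IFIT2 and -0.001 for IFIT5 in clone 1 with median scaling, and to 0.03 for IFI35, 0.02 for IFIT1 and 0.06 for OAS3 in clone 1 and 0.03 for IRF7 in clone 2 with TPM scaling. Genes under 1 FPKM rest on few reads, which limits any statement on them, and the clones cannot be told apart from the knockout with 1 control library.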
